A study of Mus musculus with 15 samples.

Results

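The 44 genes described here are mitosis and spindle genes. The choice, by symbol from 56832 counted genes, used no rule on their values but was made with earlier results of these data known. The genes encode mitotic kinases, kinetochore and spindle proteins and cytokinesis proteins. They were measured by bulk RNA-sequencing of mesenchymal stromal cells (MSCs), the bone marrow cells that give rise to bone and fat, grown in culture from 16 week old C57BL/6J mice. TauT is the taurine transporter encoded by Slc6a6, and TauT-/- mice carry a global deletion of it, so every cell of the donor and not only its MSCs lacked the transporter. Marrow cells that stuck to a collagen-coated dish were grown to confluency, and MSCs were then purified from the culture either by removing CD45+, Ter119+ and CD31+ cells on magnetic beads or by flow sorting. The RNA is therefore that of cells selected by growth and not of fresh marrow, and the labels do not say which purification a library had. Of the 15 libraries, 8 carry a male label (4 of each genotype) and 7 a female label (3 TauT+/+ and 4 TauT-/-). They carried no other allele or agent. Nothing in the labels says that libraries of a group came from separate mice, and the p-values measure the spread between these libraries, which may be technical.

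Cells enter mitosis when cyclin A and B proteins switch on the kinase CDK1, and Polo-like and Aurora kinases then build the spindle. Kinetochores attach chromosomes to spindle microtubules, and a checkpoint holds the cell until all are attached. The anaphase-promoting complex, a ubiquitin ligase known as APC/C, then marks securin and cyclin B for destruction, separase cuts the ring that joins sister chromatids, and a contractile ring divides the cell. Most of these genes are transcribed mainly from late S phase to mitosis, so in a mixed culture their RNA follows the share of dividing cells. In bulk samples, fewer dividing cells and less RNA per dividing cell cannot be told apart.

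Several libraries stood apart or went against their labels. Xist and Ddx3y, which mark female and male cells, went against the sex label in 3 libraries, TauT+/+ female 3, TauT-/- male 1 and TauT+/+ male 1. The libraries TauT-/- female 1 and TauT-/- male 1 were nearly alike, as were TauT+/+ female 1 and TauT+/+ male 1. Their gene-wise log2 ratios had a scaled median absolute deviation of 0.0978 and 0.108. The next of 105 pairs, TauT-/- male 3 with TauT+/+ male 3, crossed the genotypes and had 0.263. Set against counting noise alone, the chi-square of counts in the near-identical pairs averaged 8.24 and 9.98 per gene (median 1.15 and 1.30). Per member it averaged 3.96 and 1.39, and for the next pair it was 243.9 per gene. Amplified reads exceed counting noise even between libraries of 1 culture, so this does not tell whether a pair shares a culture, and the male-labelled library of each pair was also one that went against its sex label. The 15 libraries may thus hold only 13 cultures, in which case n is overstated and the p-values are too small. All 15 were kept as labelled, and without the male-labelled or the female-labelled library of both pairs edgeR called 2 or 7 genes between the genotypes in place of 129 lower and 94 higher. The deleted gene Slc6a6 had 592 to 2591 CPM (median 1712) in TauT+/+ and 401 to 1521 CPM (median 747) in TauT-/- libraries, with a log2 fold change of -0.97 (SE 0.36, edgeR adjusted p = 0.125). The genotypes thus overlapped at the targeted gene, and libraries are named by label throughout. Male-labelled libraries held 69764291 to 101575071 counts and female-labelled libraries 12761107 to 20781070, so depth and sex label cannot be told apart. Values are CPM, counts scaled to library size after TMM normalization, and levels on a log scale are log2(CPM + 0.5).

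All 44 genes passed the filter on low counts. They held between 0.0154% and 0.144% of a library's counts, and the 660 single counts ranged from 3 to 10514, with 3 of them below 10, all in TauT-/- female 4. Per kb of annotated exon, their mean level over the libraries ran from 0.507 CPM per kb for Cdc25c, the phosphatase that activates CDK1, to 7.49 CPM per kb for Cdc20, which activates the APC/C. Top2a (6.69), Mki67 (6.65), Tpx2 (6.57) and Pttg1 (6.28 CPM per kb) came next below Cdc20. No neighbours in this order differed by more than 0.34 on the log2 scale, less than the median within-group standard deviation of a gene between libraries, 0.9296 on that scale. Exon lengths are the union over all annotated transcripts. Exons of Foxm1 and Top2a overlapped other annotated genes on the same strand over 241 and 122 bases, and their counts are uncertain to that extent. Exons of further members, among them Pttg1 (with Slu7), Ccna2 (Exosc9), Cdk1 (Ank3) and Incenp (Gm50340), overlapped genes on the opposite strand. Whether reads of those genes entered the members' counts was not tested.

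The promoters of Cdk1, Top2a and Incenp are shown because their genes cover the patterns below, which are 2 genes that followed the group and the gene with the smallest p. Each is the 250 bases before the start of the canonical transcript in GENCODE M39 on GRCm39, read 5′ to 3′ on the gene's strand. Capitals mark 2 motifs searched on both strands, the cell cycle homology region TTTGAA (read as TTCAAA on the other strand) and the NF-Y motif CCAAT (read as ATTGG on the other strand). The motifs can overlap by 1 base, which they did not in the 3 sequences shown.
Cdk1 (chr10:69188769-69189018, minus strand): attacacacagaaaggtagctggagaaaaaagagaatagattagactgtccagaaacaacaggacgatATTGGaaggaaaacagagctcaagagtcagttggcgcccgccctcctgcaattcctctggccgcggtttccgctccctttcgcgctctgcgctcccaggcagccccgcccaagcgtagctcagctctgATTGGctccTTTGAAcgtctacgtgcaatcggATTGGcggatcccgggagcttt
Top2a (chr11:98915042-98915291, minus strand): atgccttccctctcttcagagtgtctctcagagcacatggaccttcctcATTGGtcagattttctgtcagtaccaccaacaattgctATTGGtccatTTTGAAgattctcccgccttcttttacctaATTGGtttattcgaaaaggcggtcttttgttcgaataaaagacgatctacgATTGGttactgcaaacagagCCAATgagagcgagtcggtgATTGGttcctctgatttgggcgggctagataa
Incenp (chr19:9876925-9877174, minus strand): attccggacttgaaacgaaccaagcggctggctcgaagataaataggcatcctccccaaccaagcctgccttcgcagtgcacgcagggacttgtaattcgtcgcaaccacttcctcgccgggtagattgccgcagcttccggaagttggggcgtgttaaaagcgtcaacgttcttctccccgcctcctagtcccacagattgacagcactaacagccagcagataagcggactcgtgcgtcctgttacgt
TTTGAA was present in 11 of the 44 promoters (25.0%) and in 15.6% of 21757 promoters of protein-coding genes. CCAAT was present in 23 of 44 (52.3%) and in 36.5% of all, and 14 of 44 (31.8%) held it at least 2 times against 10.8% of all. Both motifs stood together in 9 of 44 (20.5%) and in 6.05% of all. Top2a had CCAAT 6 times and Cdk1 had it 3 times, while Incenp had neither motif in this window. Mki67, Ccna2, Plk1, Tpx2 and Ndc80 also had neither, though they followed the group closely. Their Pearson r of log2 CPM with the mean of the other members was 0.978, 0.990, 0.972, 0.976 and 0.987. The lack of both motifs was thus not particular to Incenp. These are letter matches described without a test, and mitotic genes are known to carry both motifs.

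The summed level of the 44 genes differed widely between libraries of the same group. The sum had 593, 432 and 591 CPM in female-labelled TauT+/+ libraries 1 to 3 and 865, 735, 1487 and 167 CPM in TauT-/- libraries 1 to 4. Male-labelled sums were 622, 421, 1193 and 374 CPM for TauT+/+ libraries 1 to 4 and 809, 1171, 1052 and 572 CPM for TauT-/-. TauT-/- female 3 had the highest sum and TauT-/- female 4 the lowest, so the 8 TauT-/- libraries enclosed all 7 TauT+/+ libraries. TauT-/- female 4 had the lowest level of 40 genes, and TauT-/- female 3 the highest level of 36. Among TauT+/+ libraries, male 3 stood above all others and had the highest level of all 15 libraries for 5 genes. Within groups, the median standard deviation of log2 CPM was 0.9296 for the 44 genes and 0.331 for all 17204 genes tested, and 90.6% of all genes tested had a smaller value than the members' median. The biological coefficient of variation, the relative spread beyond counting error, had a median of 0.575 over the 44 genes against 0.345 over all genes tested. It ran from 0.214 for Pttg1 to 0.678 for Knl1. The ratio of the highest to the lowest library had a median of 14.97 and ran from 1.76 for Pttg1 to 55.1 for Knl1. Single libraries weighed on this spread. The mean log2 CPM of the 44 genes had a standard deviation of 1.03 over TauT-/- libraries and 0.45 without TauT-/- female 4. Over TauT+/+ libraries it was 0.53, and 0.30 without TauT+/+ male 3.

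**Figure D1:**
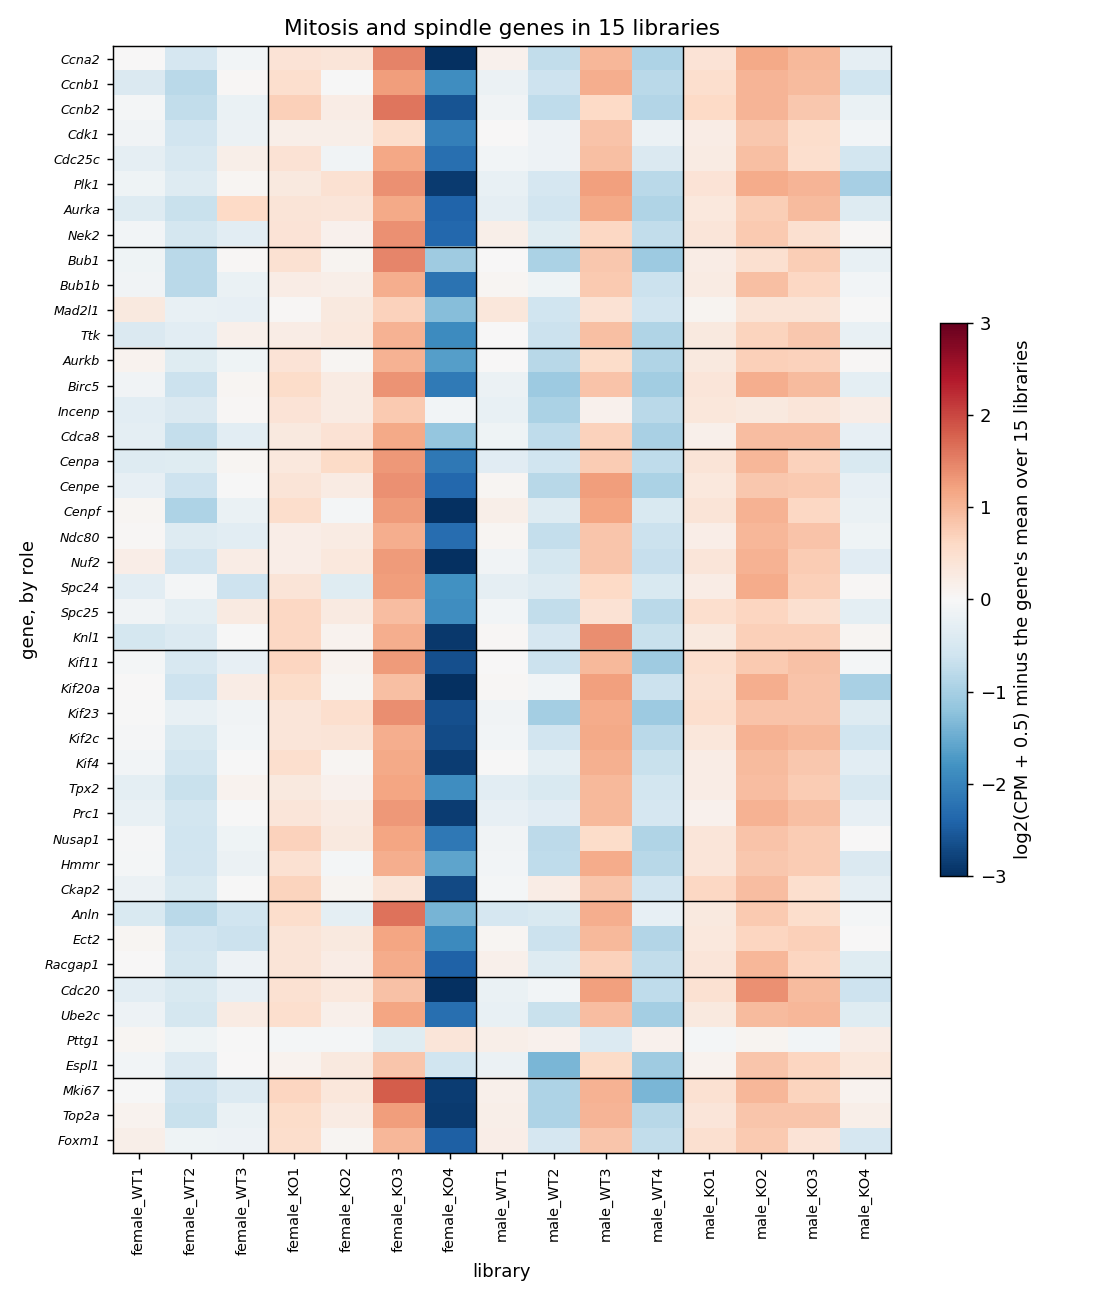
Level of the 44 genes (rows, in the order of their roles) in the 15 libraries (columns, by group), as log2(CPM + 0.5) minus the gene's mean over the libraries, with the colour scale ending at -3 and 3. The column of TauT-/- female 4 (female_KO4) is blue in nearly every row and that of TauT-/- female 3 (female_KO3) red, while Pttg1 and Incenp stay pale.

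Between the genotypes, 0 of the 44 genes passed an edgeR adjusted p of 0.05 in either direction. Of all 17204 genes tested, 0.546% were called higher and 0.75% lower in TauT-/- libraries. At an unadjusted p under 0.05, 3 members (Incenp, Cdca8 and Espl1) had a higher level and 0 a lower one, against 10.6% and 13% of all genes. That count depended on the fit. With replicate numbers blocked inside each sex label, where TauT-/- female 4 has no partner and carries no weight, 39 members had a higher level at an unadjusted p under 0.05, against 12.2% of all genes, and 1 (Incenp) passed after adjustment, against 0.477%. That fit takes the libraries numbered 1 under each label as separate pairs, so its p-values are too small if these share cultures. DESeq2, which called 5.65% of all genes higher and 6.43% lower, and voom with sample quality weights, which called 3.55% and 4.12%, each called 1 member higher, Incenp. All 44 log2 fold changes were above 0, where 48.3% of all genes were, with a median of 0.52 against -0.015 for all genes tested and a median standard error of 0.43. The sign is shared by genes that moved together between libraries, so the 44 values are not 44 separate observations. No member had genotypes that did not overlap, and 0.692% of all genes did so with TauT-/- higher and 0.436% with TauT-/- lower.

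**Figure D2:**
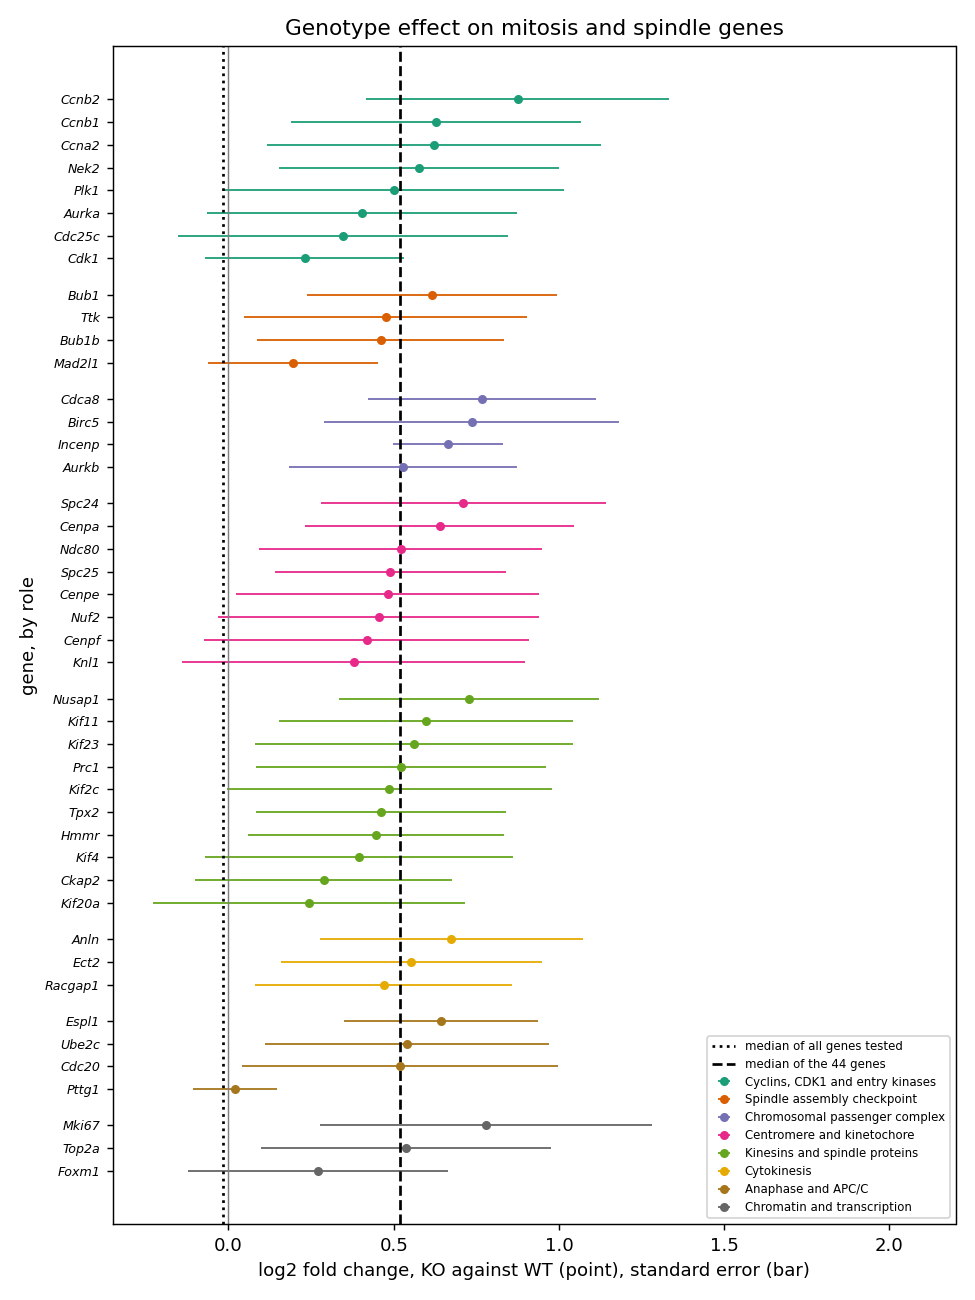
Log2 fold change of TauT-/- (KO) against TauT+/+ (WT) for each of the 44 genes (points) with its standard error (bars), coloured by role. All points lie above 0, between 0.019 for Pttg1 and 0.87 for Ccnb2, and Incenp is the point with a short bar far from 0.

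Among the cyclins and entry kinases, Cdk1, the kinase that drives mitosis, had the highest counts. Cdk1 had 23.4, 16.7 and 22.2 CPM in female-labelled TauT+/+ libraries 1 to 3 and 28.6, 28.5, 36.5 and 5.73 CPM in TauT-/- libraries 1 to 4. Male-labelled Cdk1 values were 25.2, 22.7, 45.995 and 22.1 CPM for TauT+/+ libraries 1 to 4 and 29.7, 44.2, 36.7 and 23.8 CPM for TauT-/-. TauT-/- female 4 lay far below every other library, and TauT+/+ male 3 was the highest of all. Cdk1 had a log2 fold change of 0.23 (SE 0.30, edgeR adjusted p = 0.673). Ccnb2, a B-type cyclin that activates CDK1, had the smallest p of this group. Ccnb2 had 9.31, 5.66 and 8.48 CPM in female-labelled TauT+/+ libraries 1 to 3 and 16.3, 11.4, 30.98 and 1.199 CPM in TauT-/- libraries 1 to 4. Male-labelled Ccnb2 values were 9.04, 5.54, 14.97 and 5.11 CPM for TauT+/+ libraries 1 to 4 and 15.1, 20.3, 17.5 and 8.44 CPM for TauT-/-. In 5 of 8 TauT-/- libraries Ccnb2 lay above every TauT+/+ library, and in TauT-/- female 4 below every one. Ccnb2 had a log2 fold change of 0.87 (SE 0.46, edgeR adjusted p = 0.263), the largest fold change of the 44 genes. The other members were Ccna2 (cyclin A2) at 0.62, Ccnb1 (cyclin B1) at 0.63, the centrosomal kinase Nek2 at 0.58, Polo-like kinase Plk1 at 0.50, Aurora kinase Aurka at 0.41 and Cdc25c at 0.35 on the log2 scale, with adjusted p from 0.399 to 0.707.

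The 4 spindle checkpoint genes encode proteins that delay anaphase at unattached kinetochores. Mad2l1, whose product binds and restrains CDC20, had the highest counts. Mad2l1 had 19.8, 13.8 and 13.5 CPM in female-labelled TauT+/+ libraries 1 to 3 and 16.7, 19.8, 26.3 and 6.31 CPM in TauT-/- libraries 1 to 4. Male-labelled Mad2l1 values were 20.5, 10.5, 21.9 and 10.7 CPM for TauT+/+ libraries 1 to 4 and 17.02, 21.2, 21.4 and 15.96 CPM for TauT-/-. The spread was narrower than for most members, and the genotypes overlapped with a log2 fold change of 0.20 (SE 0.26, edgeR adjusted p = 0.675). Bub1, a kinase at the kinetochore, had the smallest p of the 4. Bub1 had 8.33, 5.05 and 9.396 CPM in female-labelled TauT+/+ libraries 1 to 3 and 12.9, 9.84, 26.1 and 4.12 CPM in TauT-/- libraries 1 to 4. Male-labelled Bub1 values were 9.23, 4.53, 16.4 and 4.101 CPM for TauT+/+ libraries 1 to 4 and 10.9, 13.1, 15.6 and 7.77 CPM for TauT-/-. Here TauT-/- female 4 had about the level of TauT+/+ male 4 and male 2, and TauT-/- female 3 stood highest. Bub1 had a log2 fold change of 0.62 (SE 0.38, edgeR adjusted p = 0.338). Bub1b and Ttk, 2 further checkpoint kinases, had log2 fold changes of 0.46 and 0.48 with adjusted p of 0.478 and 0.524.

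The chromosomal passenger complex, which corrects faulty attachments and later acts at the midzone, holds Aurora B kinase (Aurkb), survivin (Birc5), borealin (Cdca8) and the scaffold INCENP. Incenp had the smallest p of all 44 genes. Incenp had 31.5, 29.2 and 40.3 CPM in female-labelled TauT+/+ libraries 1 to 3 and 52.9, 46.8, 68.1 and 37.6 CPM in TauT-/- libraries 1 to 4. Male-labelled Incenp values were 33.8, 20.3, 43.3 and 22.6 CPM for TauT+/+ libraries 1 to 4 and 50.4, 48.7, 51.3 and 46.3 CPM for TauT-/-. All TauT-/- libraries but female 4 lay above the highest TauT+/+ library, male 3. TauT-/- female 4 lay at 37.6 CPM, below TauT+/+ female 3 and male 3 only. Incenp had a log2 fold change of 0.66 (SE 0.17, edgeR adjusted p = 0.0597), so it missed the threshold in the main test. It passed with DESeq2 (adjusted p = 0.00562), with voom (0.0155), with no sex term (0.0460), with the replicate block (0.0417) and without TauT+/+ male 3 (0.0186), and its adjusted p with any other library left out ran from 0.05398 to 0.118. The fold change stayed between 0.58 and 0.77 whichever library was left out. Without 1 library of each near-identical pair, its adjusted p was 0.0974 and 0.115, and without the 3 libraries that went against the sex label it was 0.155. Its biological coefficient of variation, 0.2502, was less than that of the other 3 members of the complex. Cdca8 also fell under an unadjusted p of 0.05, with a log2 fold change of 0.77 (SE 0.34, edgeR adjusted p = 0.196). Cdca8 had 7.47, 5.43 and 7.37 CPM in female-labelled TauT+/+ libraries 1 to 3 and 11.5, 12.7, 20.9 and 3.86 CPM in TauT-/- libraries 1 to 4. Male-labelled Cdca8 values were 8.401, 5.24, 15.3 and 4.49 CPM for TauT+/+ libraries 1 to 4 and 10.3, 18.1, 18.1 and 7.69 CPM for TauT-/-. Its lowest value was again in TauT-/- female 4 and the genotypes overlapped. Aurkb and Birc5 had log2 fold changes of 0.53 and 0.74 with adjusted p of 0.367 and 0.333.

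**Figure D3:**
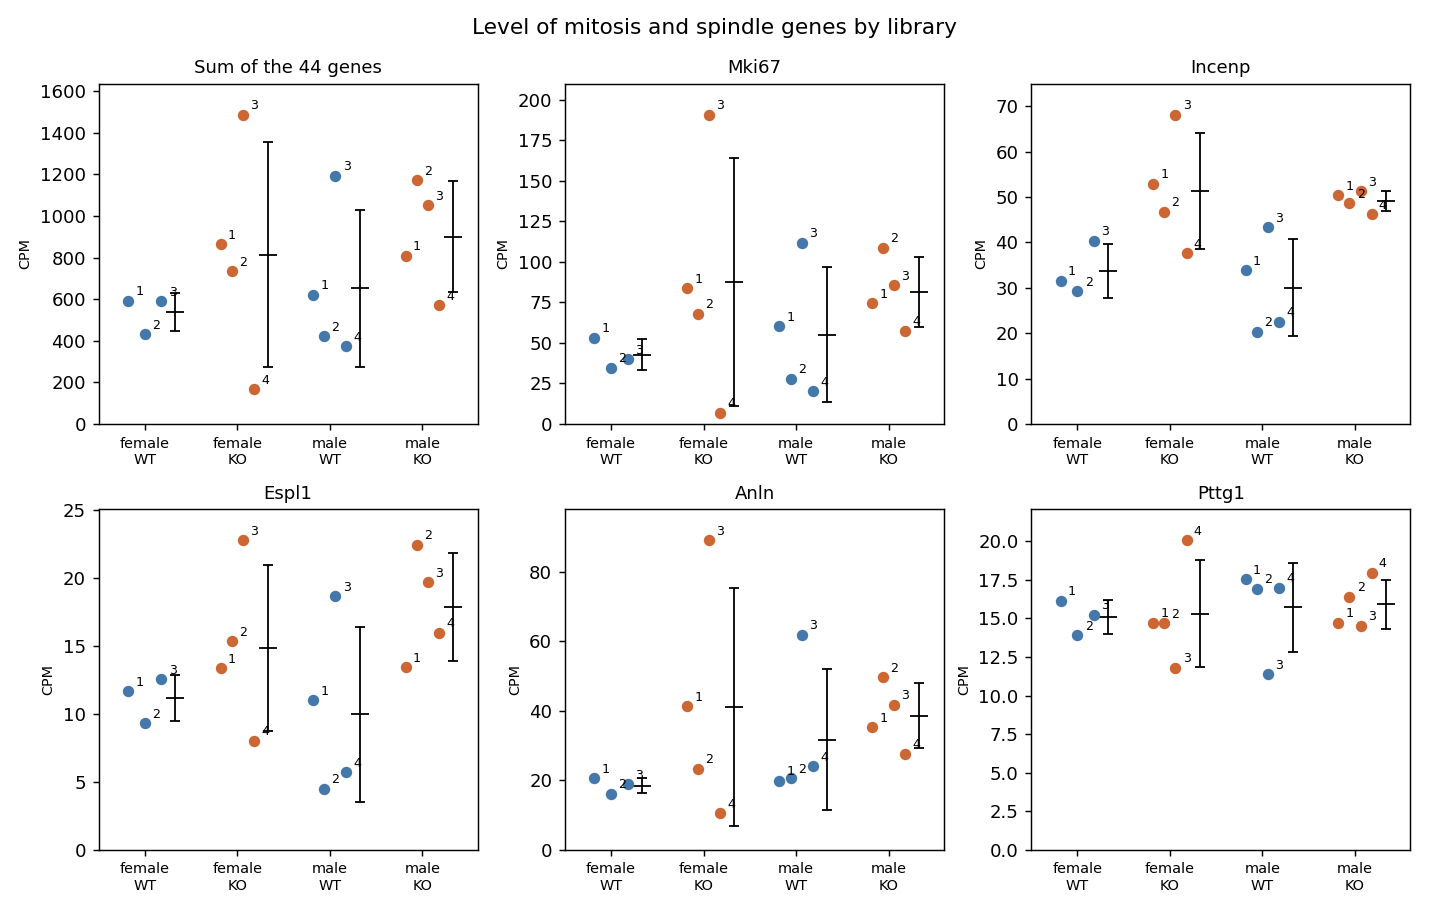
CPM of the 44 genes summed and of 5 of them in each library (points, with replicate number, blue for TauT+/+ or WT and orange for TauT-/- or KO), with the group mean and SD beside them (3 or 4 libraries a group). TauT-/- female 4 is the lowest point for the sum (167 CPM) and for Mki67 and Anln, and the highest for Pttg1 (20.1 CPM), while the 4 male-labelled TauT-/- libraries sit close together for Incenp (46.3 to 51.3 CPM).

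At the centromere and kinetochore, Cenpe, a kinesin that moves chromosomes to the spindle equator, had the highest counts. Cenpe had 11.7, 8.87 and 13.9 CPM in female-labelled TauT+/+ libraries 1 to 3 and 18.4, 16.7, 36.5 and 2.29 CPM in TauT-/- libraries 1 to 4. Male-labelled Cenpe values were 14.4, 7.57, 34.03 and 6.99 CPM for TauT+/+ libraries 1 to 4 and 17.5, 24.8, 24.5 and 11.7 CPM for TauT-/-. TauT-/- female 3 and TauT+/+ male 3 were nearly level at the top, and the genotypes overlapped over the whole range. Cenpe had a log2 fold change of 0.48 (SE 0.46, edgeR adjusted p = 0.546). Spc24, a subunit of the NDC80 complex that grips microtubules, had the smallest p here. Spc24 had 2.07, 2.601 and 1.61 CPM in female-labelled TauT+/+ libraries 1 to 3 and 3.72, 2.02, 7.15 and 0.417 CPM in TauT-/- libraries 1 to 4. Male-labelled Spc24 values were 2.15, 1.96, 4.35 and 1.84 CPM for TauT+/+ libraries 1 to 4 and 3.24, 6.49, 4.77 and 2.81 CPM for TauT-/-. Levels were low in all libraries, and TauT-/- female 4 was the lowest. Spc24 had a log2 fold change of 0.71 (SE 0.43, edgeR adjusted p = 0.332). The other NDC80 subunits Ndc80, Nuf2 and Spc25 had log2 fold changes of 0.52, 0.45 and 0.49. The centromeric histone Cenpa had 0.64, the kinetochore proteins Cenpf and Knl1 0.42 and 0.38, and the 8 adjusted p ran from 0.332 to 0.689.

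Of the 10 kinesins and spindle proteins, Tpx2, which activates Aurora A and seeds microtubules near chromosomes, had the highest counts. Tpx2 had 22.01, 16.8 and 29.3 CPM in female-labelled TauT+/+ libraries 1 to 3 and 33.4, 29.8, 62.3 and 7.09 CPM in TauT-/- libraries 1 to 4. Male-labelled Tpx2 values were 21.7, 19.7, 53.9 and 18.5 CPM for TauT+/+ libraries 1 to 4 and 31.7, 52.1, 46.4 and 19.3 CPM for TauT-/-. TauT+/+ male 3 exceeded every other TauT+/+ library, and TauT-/- female 4 was the lowest of all. Tpx2 had a log2 fold change of 0.46 (SE 0.38, edgeR adjusted p = 0.483). Nusap1, a microtubule-bundling protein, had the smallest p. Nusap1 had 8.27, 5.35 and 7.65 CPM in female-labelled TauT+/+ libraries 1 to 3 and 13.99, 10.5, 19.7 and 1.51 CPM in TauT-/- libraries 1 to 4. Male-labelled Nusap1 values were 7.79, 4.65, 12.5 and 4.25 CPM for TauT+/+ libraries 1 to 4 and 10.998, 15.6, 14.6 and 8.52 CPM for TauT-/-. In 4 of 8 TauT-/- libraries Nusap1 lay above every TauT+/+ library, and in TauT-/- female 4 below every one. Nusap1 had a log2 fold change of 0.73 (SE 0.39, edgeR adjusted p = 0.277). The spindle motors Kif11 (0.60), Kif23 (0.56), Kif2c (0.49), Kif4 (0.39) and Kif20a (0.24 on the log2 scale), the midzone bundler Prc1 (0.52), Hmmr (0.45) and Ckap2 (0.29) had adjusted p from 0.435 to 0.787.

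The 3 cytokinesis genes encode anillin (Anln), which scaffolds the contractile ring, the RhoA activator Ect2 and its partner Racgap1. Anln had both the highest counts and the smallest p. Anln had 20.6, 16.1 and 18.8 CPM in female-labelled TauT+/+ libraries 1 to 3 and 41.3, 23.3, 88.98 and 10.6 CPM in TauT-/- libraries 1 to 4. Male-labelled Anln values were 19.9, 20.6, 61.9 and 24.1 CPM for TauT+/+ libraries 1 to 4 and 35.2, 49.6, 41.7 and 27.6 CPM for TauT-/-. TauT-/- female 3 and TauT+/+ male 3 exceeded all other libraries. Anln had a log2 fold change of 0.67 (SE 0.40, edgeR adjusted p = 0.321). Its effect was 1.15 under the female label and 0.28 under the male label, and the difference did not pass the interaction test (adjusted p = 0.9999). Ect2 and Racgap1 had log2 fold changes of 0.55 and 0.47 with adjusted p of 0.413 and 0.486.

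Of the anaphase genes, Ube2c, the ubiquitin-conjugating enzyme of the APC/C, had the highest counts. Ube2c had 12.2, 9.26 and 16.03 CPM in female-labelled TauT+/+ libraries 1 to 3 and 19.3, 15.02, 31.4 and 2.398 CPM in TauT-/- libraries 1 to 4. Male-labelled Ube2c values were 11.4, 8.35, 26.2 and 6.37 CPM for TauT+/+ libraries 1 to 4 and 16.6, 26.4, 27.2 and 10.3 CPM for TauT-/-. The pattern was that of the cyclins, and Ube2c had a log2 fold change of 0.54 (SE 0.43, edgeR adjusted p = 0.467). Espl1, the protease separase, was the third gene under an unadjusted p of 0.05. Espl1 had 11.7, 9.33 and 12.6 CPM in female-labelled TauT+/+ libraries 1 to 3 and 13.4, 15.4, 22.8 and 8.03 CPM in TauT-/- libraries 1 to 4. Male-labelled Espl1 values were 11.02, 4.504, 18.7 and 5.71 CPM for TauT+/+ libraries 1 to 4 and 13.4, 22.5, 19.7 and 15.97 CPM for TauT-/-. All TauT-/- libraries but female 4 lay above all TauT+/+ libraries but male 3. Espl1 had a log2 fold change of 0.64 (SE 0.29, edgeR adjusted p = 0.201). Pttg1 encodes securin, the inhibitor of separase, and its values are given because it varied in the opposite direction to the other members, which was seen after the values were known. Pttg1 had 16.1, 13.9 and 15.2 CPM in female-labelled TauT+/+ libraries 1 to 3 and 14.7, 14.7, 11.8 and 20.1 CPM in TauT-/- libraries 1 to 4. Male-labelled Pttg1 values were 17.6, 16.9, 11.4 and 16.98 CPM for TauT+/+ libraries 1 to 4 and 14.7, 16.4, 14.5 and 17.96 CPM for TauT-/-. Its highest value was in TauT-/- female 4, the lowest library for 40 members, and its lowest was in TauT+/+ male 3, whose summed level of the 44 genes was the second highest. Pttg1 had a log2 fold change of 0.019 (SE 0.13, edgeR adjusted p = 0.946), and its sign turned when TauT-/- female 4 or TauT+/+ male 3 was left out (-0.048 and -0.046). Cdc20 had a log2 fold change of 0.52 with an adjusted p of 0.533.

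Mki67, the proliferation antigen that coats mitotic chromosomes, Top2a, the topoisomerase that untangles sister chromatids, and Foxm1, a transcription factor of mitotic genes, form the last group. Mki67 had the highest counts of all 44 genes. Mki67 had 53.3, 34.7 and 40.03 CPM in female-labelled TauT+/+ libraries 1 to 3 and 83.8, 67.95, 191 and 6.99 CPM in TauT-/- libraries 1 to 4. Male-labelled Mki67 values were 60.2, 27.9, 112 and 20.3 CPM for TauT+/+ libraries 1 to 4 and 74.5, 109, 85.5 and 57.5 CPM for TauT-/-. It spanned 6.99 to 191 CPM within the female-labelled TauT-/- group alone. Mki67 had a log2 fold change of 0.78 (SE 0.50, edgeR adjusted p = 0.363). Top2a and Foxm1 had log2 fold changes of 0.54 and 0.27 with adjusted p of 0.482 and 0.710.

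The size of the genotype difference over the group changed with the libraries used, while the sign of its median did not. The median log2 fold change of the 44 genes was 0.52 with all libraries, 0.31 without TauT-/- female 3, 0.68 without TauT-/- female 4 and 0.77 without TauT+/+ male 3. Without TauT-/- female 4, 22 members had a higher level at an unadjusted p under 0.05, against 10.4% of all genes in that fit, and without TauT+/+ male 3 13 members did, against 13.2%. Incenp without TauT+/+ male 3 was the one call after adjustment in these 15 fits (2.98% of all genes higher in that fit, and 0.217% without TauT-/- female 4). The median over all genes tested stayed near 0 throughout. The median over the members was 0.51 and 0.55 without 1 library of each near-identical pair and 0.60 without the 3 libraries that went against the sex label.

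**Figure D4:**
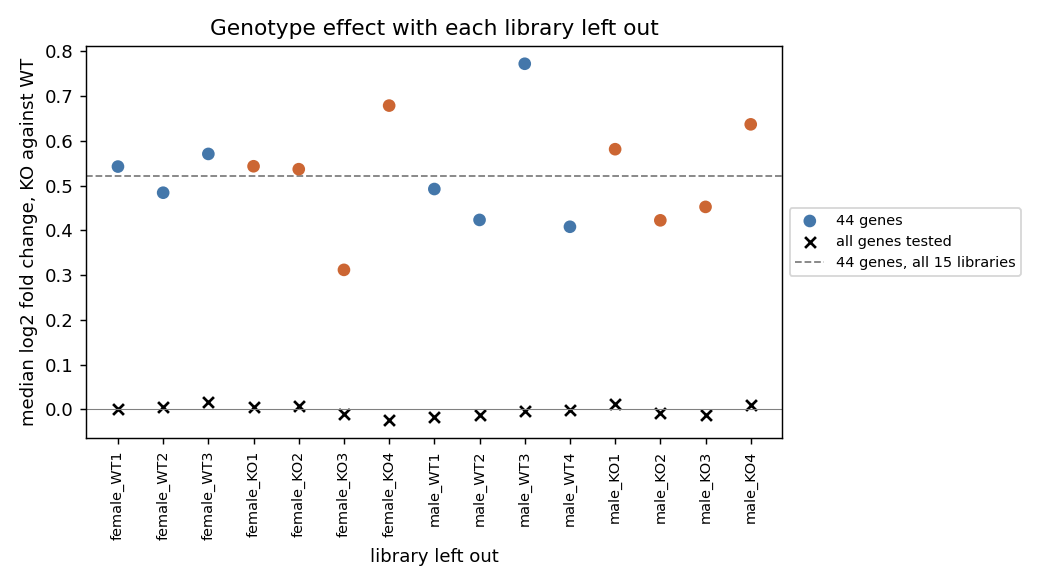
Median log2 fold change of TauT-/- against TauT+/+ over the 44 genes (circles, blue where a WT and orange where a KO library is left out) and over all genes tested (crosses) in fits that each leave out the library named on the x axis. The members' median lies between 0.31 (without female_KO3) and 0.77 (without male_WT3), and the crosses lie near 0.

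Within the sex labels, edgeR called 0% of all genes in either direction. The members had a median log2 fold change of 0.57 under the female label and 0.47 under the male label, and all 44 were above 0 under each. Above 0 under the female label were 49.4% of all genes, and under the male label 47.0%. At an unadjusted p under 0.05, 1 member had a higher level under each label and 0 a lower one. With the replicate number as a block, 12 members had a higher level under the male label, against 5.96% of all genes. Under the female label, where TauT-/- female 4 then carries no weight, 31 members did, against 817 of all 17204 genes. The members' median there was 0.89, and 0 genes were called under either label. Of all genes without the block, 6.89% were higher and 7.75% lower under the female label, and 4.1% and 4.52% under the male label. DESeq2 called 424 genes under the female label (1.26% higher and 1.21% lower) and 85 under the male label (0.215% and 0.279%), with 0 members among them. The female median was 0.077 without TauT-/- female 3 and 0.94 without TauT-/- female 4. The male median was 1.02 without TauT+/+ male 3 and 0.25 without TauT+/+ male 4. The difference of the genotype effect between labels had a median of 0.056 over the members. edgeR called 0 genes for it, with 0.552% lower and 0.854% higher at an unadjusted p under 0.05 and 0 members among them, and DESeq2 called 2 genes (0.0116% lower, 0% higher), neither of them a member. Between female-labelled and male-labelled libraries, 41 of 44 members had a lower level with a median of -0.24, none past a threshold of 0.05 before or after adjustment. Above 0 in that comparison were 42.8% of all genes, whose median was -0.040. Of all genes, edgeR called 0.0174% lower and 0.00581% higher, 2.17% and 3.28% were so at an unadjusted p under 0.05, and DESeq2 called 0.0581% and 0.18%. Without TauT-/- female 4 the members' median was -0.056, and without TauT+/+ male 3 it was 0.00049.

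The members varied together. Over the 946 pairs of members the median Pearson r of log2 CPM across the 15 libraries was 0.938, and it was 0.908 without TauT-/- female 4. Pttg1 had a median r of -0.716 with the other 43 genes (-0.796 to -0.448), and -0.612 without TauT-/- female 4. Incenp followed the group less closely, with r = 0.608 to the mean of the other members. Among 9497 further genes with at least 10 CPM on average, those closest to the members' mean were Spag5 (r = 0.987), Kif20b (0.987), Ckap2l (0.984), Cip2a (0.983) and Kifc1 (0.974), of which Kif20b and Kifc1 encode kinesins and Spag5 a spindle protein. The farthest in the other direction were Ccng2, a cyclin G gene (r = -0.909), the mitochondrial transport gene Rhot1 (-0.903), Pnrc1 (-0.902), Xkr8 (-0.887) and the glutathione transferase Gstm1 (-0.877). These r describe 15 libraries that share 2 near-identical pairs and 1 library far from the rest, and were not tested.

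Other cell cycle genes gave a partly different picture. Of 82 further mitotic genes 0 passed the threshold. A log2 fold change above 0 was seen in 73, against 48.3% of all genes, and the median was 0.42. The smallest p was that of Cdc25b, a phosphatase that activates CDK complexes, with a log2 fold change of 0.82 (SE 0.21, edgeR adjusted p = 0.0619). Of 36 genes of G1/S and DNA replication, 3 were higher in TauT-/- libraries and 0 lower, against 0.546% and 0.75% of all genes. Their median was 0.42 with 35 above 0. Pcna, the sliding clamp of DNA polymerase, rose with a log2 fold change of 0.62 (SE 0.11, edgeR adjusted p = 0.0293). Pcna had 54.4, 47.96 and 49.3 CPM in female-labelled TauT+/+ libraries 1 to 3 and 64.8, 67.3, 90.7 and 89.7 CPM in TauT-/- libraries 1 to 4. Male-labelled Pcna values were 50.2, 37.8, 51.1 and 35.8 CPM for TauT+/+ libraries 1 to 4 and 59.9, 66.6, 61.5 and 78.9 CPM for TauT-/-. No TauT+/+ library reached the lowest TauT-/- library, as was so for 0.692% of all genes. Chaf1b, a subunit of the chromatin assembly factor that works at replication forks, rose with a log2 fold change of 0.97 (SE 0.21, edgeR adjusted p = 0.0434). Chaf1b had 7.59, 4.97 and 6.17 CPM in female-labelled TauT+/+ libraries 1 to 3 and 11.1, 7.49, 13.8 and 13.2 CPM in TauT-/- libraries 1 to 4. Male-labelled Chaf1b values were 6.203, 2.95, 6.82 and 2.97 CPM for TauT+/+ libraries 1 to 4 and 8.999, 10.5, 10.1 and 9.83 CPM for TauT-/-. TauT+/+ female 1 overlapped the lowest TauT-/- library, female 2. E2f2, a transcription factor of the G1/S genes, rose with a log2 fold change of 1.60 (SE 0.36, edgeR adjusted p = 0.0455). E2f2 had 6.72, 3.67 and 5.11 CPM in female-labelled TauT+/+ libraries 1 to 3 and 9.01, 15.2, 21.5 and 10.01 CPM in TauT-/- libraries 1 to 4. Male-labelled E2f2 values were 6.86, 1.401, 8.46 and 3.21 CPM for TauT+/+ libraries 1 to 4 and 7.97, 20.5, 17.6 and 21.2 CPM for TauT-/-. TauT+/+ male 3 overlapped the lowest TauT-/- library, male 1. TauT-/- female 4, lowest for nearly all mitotic members, thus had the second highest level of Pcna and of Chaf1b. Summed over the 36 replication genes, however, it was also the lowest library, at 405 CPM against 487 to 984 CPM in TauT+/+ libraries. With each library left out in turn, these 3 calls held 9, 3 and 2 times of 15, and their adjusted p reached 0.0840, 0.105 and 0.108 in the least favourable of them.

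Of 16 cell cycle inhibitors and arrest genes 0 passed the threshold, with 8 above and 8 below 0. Btg2, an antiproliferative gene induced by p53, had the smallest p, with a log2 fold change of -1.54 (SE 0.39, edgeR adjusted p = 0.0613). Of 16 genes of the complexes that control mitotic transcription 0 passed the threshold, with a median of 0.14, and E2f4, a repressor of the E2F family, had the smallest p with a log2 fold change of 0.29 (SE 0.076, edgeR adjusted p = 0.0619).

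Markers of other cells moved with the libraries as well. The 18 macrophage and leukocyte markers were all tested, 17 had a log2 fold change above 0 with a median of 0.91, and Cd68 and Ctss, 2 lysosomal macrophage genes, were higher in TauT-/- libraries (log2 fold change of 1.46 (SE 0.33, edgeR adjusted p = 0.0445), and log2 fold change of 2.07 (SE 0.47, edgeR adjusted p = 0.0467)). Ctss had 2503 CPM in TauT-/- female 4 and 271 to 1266 CPM in the other TauT-/- libraries. Without the 3 libraries that went against the sex label edgeR called 0 genes. Neither these calls nor those of Pcna, Chaf1b and E2f2 held there. Of all genes, 48.3% had a log2 fold change above 0. The share called higher by edgeR was 0.546%, DESeq2 called 5.65% higher and 6.43% lower, and 10.6% were higher at an unadjusted edgeR p under 0.05. DESeq2 called 8 of the 18 markers higher, and 14 were higher at that unadjusted edgeR p, with 0 lower in each case. Summed, these markers ranged from 1491 to 10305 CPM in TauT+/+ and from 7189 to 24025 CPM in TauT-/- libraries, with the maximum in TauT-/- female 4. The 14 MSC markers summed to 20709 to 38507 CPM in TauT+/+ and 4949.8 to 27783 CPM in TauT-/- libraries, with the minimum in TauT-/- female 4, and 10 of 14 had a log2 fold change below 0 with 0 past the edgeR threshold, while DESeq2 called 3 lower. So the library with the lowest mitotic level also had the most macrophage and the least MSC marker RNA, but other libraries did not follow this. TauT-/- female 3, with the highest mitotic sum, had 16829 CPM of macrophage markers. TauT+/+ male 2, with a mitotic sum of 421 CPM, had the least, 1491 CPM. Cxcl12 and Col1a1 made up most of the MSC sum in TauT+/+ female 1 (23382 and 11316 of 38507 CPM). The part of the macrophage and MSC markers in the results was not tested. The 8 endothelial markers summed to 2.71 to 22.03 CPM (median 8.399) in TauT+/+ and 8.397 to 157 CPM (median 31.1) in TauT-/- libraries, again with the maximum in TauT-/- female 4, and of 6 tested edgeR called 0 and DESeq2 2 higher, while 2 were higher at an unadjusted edgeR p under 0.05. In TauT-/- female 4 the endothelial sum was mostly Flt1 (120 CPM) and Kdr (29.9 CPM). There Pecam1 had 6.46, Ptprb 0.573, Cdh5 0.156, Emcn 0.104, Tek 0.0521 and Tie1 0 CPM. The sum thus does not show a rise shared by the endothelial markers. Erythroid markers reached at most 4.55 CPM in sum, with Gata1 and Hbb-bs at 0 in all libraries. The other blood cell markers reached at most 159 CPM, with Cd3e at 0.

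**Figure D5:**
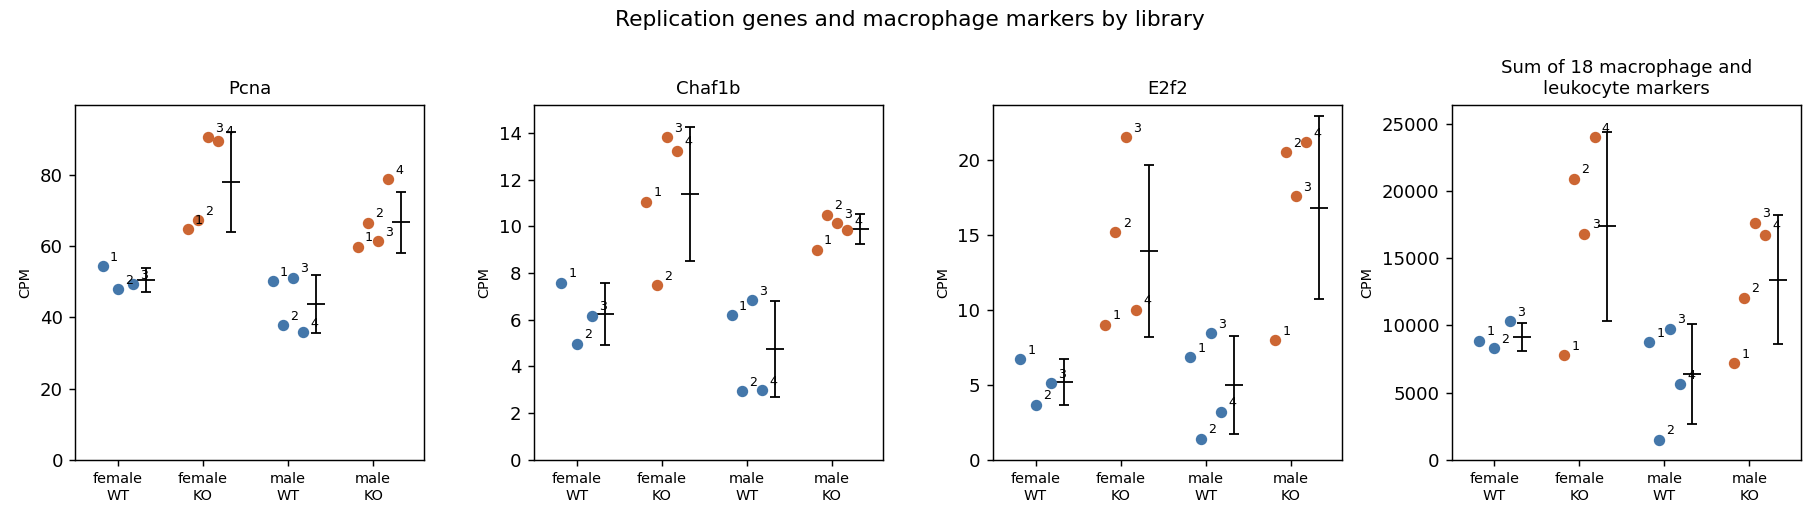
CPM of 3 replication genes and of 18 macrophage and leukocyte markers summed, in each library (points with replicate number, blue for TauT+/+ or WT and orange for TauT-/- or KO), with group mean and SD. All TauT-/- points lie above all TauT+/+ points for Pcna (59.9 CPM or more against 54.4 CPM or less), and TauT-/- female 4 has the highest marker sum.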

How the data were processed

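Bulk RNA-sequencing of cultured MSCs from TauT+/+ and TauT-/- mice was analysed in 15 libraries, with groups taken from the labels. The authors primed full-length cDNA at the poly(A) tail, trimmed reads with fastp 0.23.1, mapped them with STAR 2.7.9a to GRCm39 with GENCODE M31, and counted them per gene on the reverse strand with featureCounts of Subread 2.0.1. The deposited values are whole-number counts, not normalized, and 0 per-sample columns were left unused. Because the libraries were amplified and carry no molecular identifiers, reads are not independent molecules.

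Counts of 17204 genes that passed filterByExpr were fitted in R 4.3.3 with edgeR 4.0.16 (TMM, quasi-likelihood test, sex label and genotype), with Benjamini-Hochberg adjustment over all of them and a threshold of 0.05. Effects within a sex label used 1 term per group. CPM were computed with TMM-scaled library sizes. Total counts per library ran from 12761107 to 101575071. DESeq2 1.42.0 and limma 3.58.1 (voom) were alternatives, with other normalizations, filters and left-out libraries, and these were computed on counts as deposited. Deviations from the group means of same-numbered TauT+/+ and TauT-/- libraries correlated in all 4 male-labelled pairs (r from 0.17 to 0.64) but not in all 3 female-labelled ones (0.31, 0.098 and -0.035). The labels do not tie numbers to a litter or day, so the main fit has no block, and a fit with the number as a block was an alternative. On simulated counts for the KO against WT comparison, in which 200 of 17204 genes were changed 4-fold, edgeR recovered 148 with 6 false calls. DESeq2 recovered 168 with 50 false calls, and voom 144 with 9. The largest fold change of a member, 0.87 on the log2 scale, was smaller than the simulated one, so recovery at the members' size was not tested.

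Values per library are printed, in each of 8 roles, for the member with the highest mean CPM and the one with the smallest p, and for any member past the threshold. Other lists give the genes past the threshold (at most 5) or the 1 with the smallest p. Added to these are the 5 genes most and the 5 least correlated with the members, and Slc6a6. Pttg1 and Cdca8 were added after their values were seen. The members and lists were chosen with earlier results of these data known. Positions, exon lengths and promoters were read from GRCm39 with GENCODE M39, which is newer than the authors' M31, and all 44 symbols matched. Motif search and figures used Python with pandas and matplotlib.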

Additional observations from a re-analysis of the deposited data

Results flagged for a closer look

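In 5 of 135 group and gene combinations, 1 library of a group of 4 lay far from the other 3 on the log2 CPM scale, where chance would mark about 1 in 20, or 6.75. Cdk1 and Cdc20 were far below the rest of their group in TauT-/- female 4, with a gap of 0.863 and 0.856 of the group's range. Tpx2 and Anln were far above the rest in TauT+/+ male 3, with 0.853 and 0.834 of the range. Pttg1 was far below the rest in that same library, with 0.914 of the range.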

How the results depend on the processing

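The median log2 fold change of the 44 genes stayed above 0 in all 28 alternatives, between 0.31 and 0.77, and the sign of 43 genes held in every one that tested them (3 of them, Cdc25c, Knl1 and Spc24, were not tested with 10 counts in every library). Pttg1 turned to -0.041 with voom, -0.040 with the replicate block, -0.048 without TauT-/- female 4 and -0.046 without TauT+/+ male 3, and ran up to 0.067 with other libraries left out. A single member, Incenp, was called in 5 alternatives (1 member higher each with DESeq2, voom, no sex term, the replicate block and without TauT+/+ male 3), and no member was called lower in any. Same-numbered libraries deviated together (r over 0.1) in 5 of 7 pairs, all 4 male-labelled ones among them, and 11 of 14 libraries correlated best with their own number, which is a hint of pairing from the data and not from the labels. The near-identical libraries numbered 1 count under both labels here and in the block, so these counts may hold the same cultures more than once. With the number as a replicate block, 177 genes were lower and 82 higher, the members' median was 0.71, 39 members had a higher level at an unadjusted p under 0.05, and Incenp had an adjusted p of 0.0417.

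Counts over all genes moved far more, and the cause was not tested. Against 129 lower and 94 higher genes with edgeR, DESeq2 gave 1106 and 972, voom 708 and 611, no sex term 276 and 195, no filter on low counts 42 and 32, and 10 counts in every library 200 lower genes (41 members tested). Male-labelled libraries alone gave 0 and 0, female-labelled alone 0 and 0, and the fits without the 3 libraries against their sex label 0 and 0. Without the male-labelled libraries numbered 1 there were 0 lower and 2 higher genes, and without the female-labelled ones 0 and 7. These fits hold 7 to 13 libraries. Leaving out 1 library gave 4 to 779 lower and 8 to 476 higher genes, with the fewest lower without TauT+/+ female 1 or female 2, the fewest higher without TauT+/+ female 2 or TauT-/- female 3, and the most without TauT+/+ male 3, and 0 to 1 members higher.

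Within the sex labels edgeR called 0 genes, DESeq2 85 under the male and 424 under the female label, and voom 47 under the female label. With 1 library left out the counts were 0 to 1 and 0 to 3 genes, and the members' medians ran from 0.25 to 1.02 under the male and from 0.077 to 0.94 under the female label. The median difference between labels ran from -0.42 to 0.44 and DESeq2 called 2 genes for it. For the sex label itself, DESeq2 called 41 genes, no filter 2, the fit without male-labelled libraries numbered 1 called 2, that without the 3 libraries against their label 7, and leaving out 1 library 1 to 4, against 4 with edgeR. The median over the members then ran from -0.50 to 0.00049. Cdc25c, Knl1 and Spc24 had under 10 counts in TauT-/- female 4, which was the deepest female-labelled library. Standard errors of the genotype effect did not follow the counts. They were 0.50 for Mki67, which had the highest counts, and 0.50, 0.52 and 0.43 for Cdc25c, Knl1 and Spc24.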
